A study of Homo sapiens with 4 samples.

Results

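The aryl hydrocarbon receptor gene AHR, its partner gene ARNT, its repressor gene AHRR and the target genes CYP1A1, CYP1B1 and TIPARP were examined in MDA-MB-231 cells with and without added LKB1. AHR and CYP1B1 were higher in the LKB1 line, by 1.51-fold and 1.81-fold, and passed the authors' test. ARNT, AHRR, TIPARP and CYP1A1 did not pass it, and CYP1A1 had almost no reads in either line. The members are the 6 rows, of 34675 in the authors' deposited table, that carry these gene symbols. They were proposed with the values of this same comparison known, so the values and p-values below describe the members and support nothing beyond that.

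The receptor is a transcription factor of the bHLH-PAS family that waits in the cytosol, bound to HSP90 and its co-chaperones, until a small molecule binds it. Polycyclic aromatic hydrocarbons, dioxins and tryptophan products such as kynurenine are ligands. The liganded receptor enters the nucleus, pairs with ARNT and binds xenobiotic response elements, which hold the core GCGTG. Among its textbook targets are the monooxygenases CYP1A1 and CYP1B1 and a pair of feedback genes, AHRR and TIPARP. AHRR competes with the receptor for ARNT, and TIPARP is a mono-ADP-ribosyltransferase that modifies the receptor. In breast cells CYP1B1 is known for the oxidation of oestradiol.

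Per the labels, 2 libraries came from a stable line with a plasmid for FLAG-tagged wildtype LKB1 (pcDNA-FLAG-LKB1 wildtype) and 2 from a stable line with the empty plasmid (pcDNA-Vector). LKB1 is the kinase encoded by STK11. Both lines are described as MDA-MB-231, an established triple-negative breast carcinoma line from a pleural effusion, and were grown on plastic in DMEM with serum. No AHR ligand is named in the labels, and they do not say whether a line was 1 clone or whether its duplicates were separate cultures, so the p-values reflect the spread of these 4 libraries alone, and that spread may be technical. The deposited table holds 1 comparison over the 4 libraries and no value per library. Whole read totals of each line, summed over its 2 libraries, were recovered from the deposited folds, with a depth 1.04 times as high in the LKB1 line as in the vector line. The header names no direction. The fold was read as LKB1 over vector because STK11, with 2112 reads in the LKB1 line and 1321 in the vector line, was 1.54-fold higher in that reading (authors' deposited table, adjusted p = 0.00105). Its log2 fold was 0.62, against a median of 0.17 for its 24 nearest protein-coding genes with at least 40 reads. The line named for each read total follows from the same reading, so every direction below depends on this 1 gene.

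Several facts about the lines stand beside every difference below, and their part in these differences was not tested. When the libraries were checked for mix-ups, 1 group of 2 departed from what is known of the named line. All 5 measured markers of endothelium fell, to 213 reads in all in the LKB1 line against 1848 in the vector line, and ESAM alone had 129 in the LKB1 line and 1197 in the vector line. The fall was not limited to endothelial genes. Of fibroblast markers with at least 40 reads 2 of 4 were lower and none higher, with COL3A1 at a log2 fold of -2.67. Of 2 such leukocyte markers LCP1 was lower (-1.85) and CD14 higher (1.04). No luminal, basal or hepatocyte marker of that depth passed the authors' test. Markers of mesenchymal-like breast carcinoma, such as VIM, CD44 and AXL, were present in both lines, with 2 of 8 higher and none lower. The titles carry fmRNA for the LKB1 libraries and mRNA for the vector libraries, a difference that the labels do not explain and that cannot be told apart from the group. In addition, 1 LKB1 library has another run tag than the other 3 libraries.

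RefSeq promoter windows, matched by symbol for 5 of the 6 members (GRCh38.p14), were searched for the receptor's core motif, GCGTG on either strand, because these are the genes on which the receptor is known to act or to depend. A window runs from 250 bases before to 50 bases after a transcript start. The stretches before the start are shown 5′ to 3′ on the gene's strand for AHR, AHRR, CYP1A1 and TIPARP, with each match in capitals (CACGC is GCGTG on the other strand). They are chr7:17298402-17298651 (plus strand) for AHR, chr5:321464-321713 (plus) for AHRR, chr15:74725529-74725778 (minus) for CYP1A1 and chr3:156674340-156674589 (plus) for TIPARP.
AHR: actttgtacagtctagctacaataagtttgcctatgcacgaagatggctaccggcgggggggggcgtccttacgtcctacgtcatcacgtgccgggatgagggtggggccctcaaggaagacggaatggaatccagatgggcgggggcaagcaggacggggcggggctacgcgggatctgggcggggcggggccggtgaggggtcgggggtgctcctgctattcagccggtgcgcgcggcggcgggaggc
AHRR: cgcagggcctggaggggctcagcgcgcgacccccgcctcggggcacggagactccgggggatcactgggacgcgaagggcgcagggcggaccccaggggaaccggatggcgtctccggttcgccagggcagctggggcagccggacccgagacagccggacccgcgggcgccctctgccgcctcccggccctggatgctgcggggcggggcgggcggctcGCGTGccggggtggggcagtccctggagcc
CYP1A1: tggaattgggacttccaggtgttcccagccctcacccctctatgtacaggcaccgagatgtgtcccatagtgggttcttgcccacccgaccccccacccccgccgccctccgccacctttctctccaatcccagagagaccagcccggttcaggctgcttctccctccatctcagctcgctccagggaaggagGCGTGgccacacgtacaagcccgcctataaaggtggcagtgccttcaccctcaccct
TIPARP: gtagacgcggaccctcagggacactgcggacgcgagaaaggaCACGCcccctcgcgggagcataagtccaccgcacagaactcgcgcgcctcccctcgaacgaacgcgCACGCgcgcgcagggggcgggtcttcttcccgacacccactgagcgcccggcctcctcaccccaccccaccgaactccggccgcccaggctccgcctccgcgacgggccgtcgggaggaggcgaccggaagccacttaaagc
The motif's first base, read along the gene, lay 30 bases before the start in AHRR, 57 in CYP1A1, and 208 and 142 in TIPARP. The AHR stretch holds no match before the start and 1 match 38 bases into the transcript, which is not shown. The ARNT window held none. Among all 35116 windows 36.5% held GCGTG, so a match is common. The longer form TNGCGTG, which contains the core, was held by 5.51% of windows. Among the 5 members with a window AHRR alone held it, in the window shown. AHRR has a second window with 2 matches of the core, and TIPARP another 2 windows with none. No window was matched for CYP1B1, so its promoter was not searched. No binding was measured, so a match is a description of the sequence only.

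AHR (ENSG00000106546.8, chromosome 7, 17338246 to 17385776, plus strand, hg19) had 2556 reads in the LKB1 line and 1625 in the vector line. Its log2 fold in the authors' deposited table was 0.60 (adjusted p = 0.0018). The counting interval (95%, exact Clopper-Pearson) of its fold was 1.42 to 1.61, which covers counting error only. The standard error that the deposited p implies, as the log2 fold divided by the normal quantile of that p, was 0.15 and takes in the spread between libraries as the authors modelled it.

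ARNT (ENSG00000143437.15, chromosome 1, 150782181 to 150849244, minus strand), the shared partner of AHR and the hypoxia factors, had 613 reads in the LKB1 line and 638 in the vector line. Its deposited log2 fold was -0.11 (implied standard error 0.19, adjusted p = 1), and its counting interval, 0.826 to 1.03, includes 1. Per kilobase of exon, scaled to the depth of the vector line, AHR stood at 2.69 times the level of ARNT in the LKB1 line and 1.64 times in the vector line.

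CYP1B1 (ENSG00000138061.7, chromosome 2, 38294116 to 38337044, minus strand) had the highest fold of the 6 members. Its total was 1821 reads in the LKB1 line and 967 in the vector line. The deposited log2 fold was 0.86 (adjusted p = 1.32e-06), with an implied standard error of 0.15 and a counting interval of the fold from 1.67 to 1.96. The antisense gene CYP1B1-AS1, which overlaps 34254 bases of its span on the other strand, had 58 reads in the LKB1 line and 33 in the vector line. Even all of these reads together are few beside those of CYP1B1.

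CYP1A1 (ENSG00000140465.9, chromosome 15, 75011883 to 75017951, minus strand), the most widely used readout of receptor activity, had 2 reads in the LKB1 line and 9 in the vector line. The ratio was 0.214 with a counting interval of 0.0225 to 1.03, and the adjusted p in the authors' deposited table was 0.621. CYP1A1 did not pass the test, and its interval includes 1 and spans wide folds. Its relative CYP1A2 had no read in either line, while CYP1B1 was at 511 times the level of CYP1A1 per kilobase of exon in the LKB1 line and at 60.4 times in the vector line, ratios that rest on the few CYP1A1 reads.

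The feedback genes went in no common direction. AHRR (ENSG00000063438.12, chromosome 5, 304291 to 438406, plus strand) had 756 reads in the LKB1 line and 585 in the vector line, a deposited log2 fold of 0.31 (implied standard error 0.17, adjusted p = 0.438) and a counting interval of 1.11 to 1.39. TIPARP (ENSG00000163659.8, chromosome 3, 156391024 to 156424559, plus strand) had 442 reads in the LKB1 line and 518 in the vector line. Its deposited log2 fold was -0.28 (implied standard error 0.17, adjusted p = 0.584), with a counting interval of 0.721 to 0.934. Both counting intervals exclude 1, but neither gene passed the test that includes the spread between libraries.

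**Figure D1:**
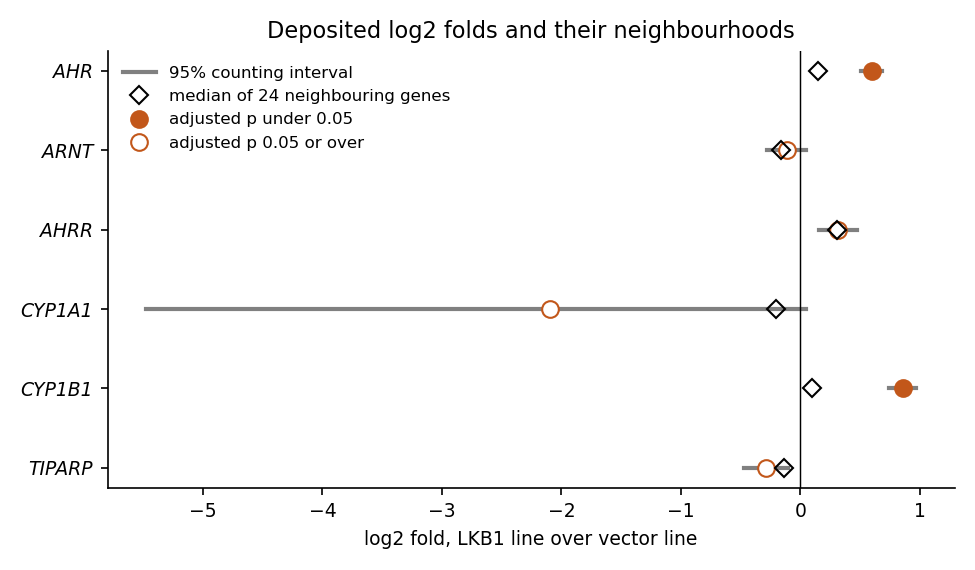
Deposited log2 folds of the 6 members, LKB1 line over vector line (x axis), as filled circles where the adjusted p was under 0.05; grey bars are 95% counting intervals and open diamonds the median of 24 neighbouring protein-coding genes. AHR (0.60) and CYP1B1 (0.86) lie above the median of their neighbours, AHRR (0.31) lies on it, and the bar of CYP1A1, with 2 reads in the LKB1 line and 9 in the vector line, spans from -5.48 to 0.05.

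In all, 2 of the 6 members were called and both were higher, 3 had log2 folds above 0 and 3 below. Of all rows 5.79% were called, 2.55% higher and 3.24% lower, and of the 12485 protein-coding genes that had 40 reads or more 13.2% were called. Since the members were chosen on this comparison, nothing is read from these shares. An exact negative binomial test was run on the totals, which were solved from the deposited folds and so give no independent check. Its variation between libraries was assumed and not estimated, because there is no value per library. The calls of AHR and CYP1B1 held at an assumed variation of 0.1 between libraries, where 8.62% of genes were called. They were lost at an assumed variation of 0.2 (adjusted p = 0.495 and 0.096), where 3.34% of genes were called, and at 0.4, where 1.03% were. Neither reached a fold of 2, which 2.98% of rows did with an adjusted p under 0.05. Of the 6 members 5 had at least 40 reads, CYP1A1 being the exception. The median log2 fold was 0.10 over the 6 and 0.31 over these 5, against -0.02 over the protein-coding genes with 40 reads or more. The smallest adjusted p among the members not called was that of AHRR, and the largest among those called that of AHR.

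Per kilobase of exon (GENCODE 29 union of exons, scaled to the depth of the vector line), AHR and CYP1B1 were the most abundant members in both lines. In the LKB1 line AHR stood at 321 and CYP1B1 at 319 reads per kilobase, with overlapping counting intervals. ARNT at 119 and AHRR at 116 also overlapped, TIPARP followed at 88.3, and CYP1A1 was at 0.624. In the vector line AHR stood at 212, above CYP1B1 at 176 with intervals that do not overlap, and ARNT at 129. There TIPARP at 108 and AHRR at 93.0 overlapped, and CYP1A1 was at 2.92. With the longest transcript as the length, chosen after seeing the data, AHRR at 128 stood above ARNT at 121 in the LKB1 line. How reads within introns were counted is not given in the sources used here.

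**Figure D2:**
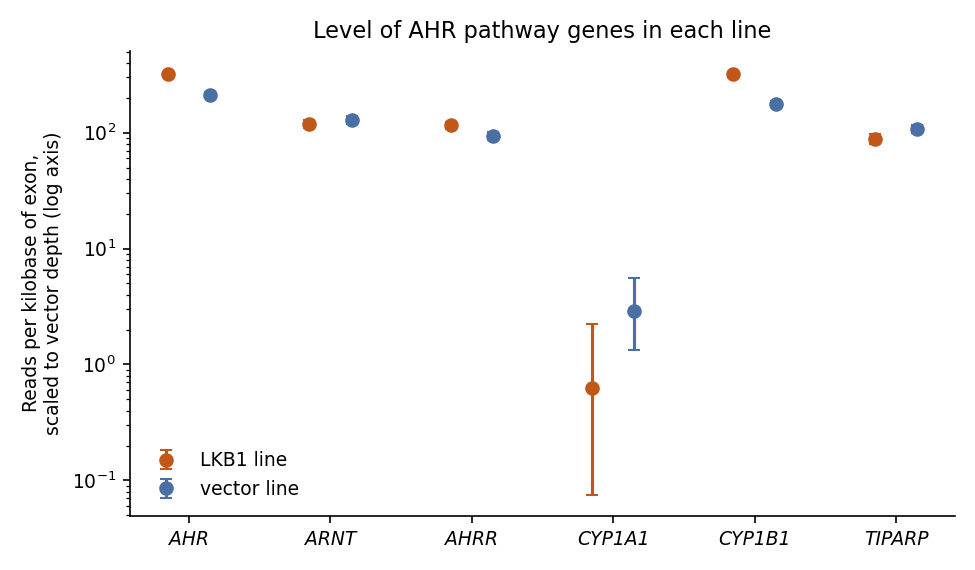
Level of each member in the LKB1 line (left of each pair, orange) and the vector line (right, blue), in reads per kilobase of exon scaled to the depth of the vector line, on a log axis; points are totals over 2 libraries and bars exact Poisson 95% intervals, often smaller than the point. In the LKB1 line AHR is at 321, CYP1B1 at 319 and CYP1A1 at 0.624, and in the vector line they are at 212, 176 and 2.92.

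Because neighbouring genes can shift together along a chromosome, each member was set beside its 24 nearest protein-coding genes with at least 40 reads. Those around AHRR had a median log2 fold of 0.30 and 21 of the 24 were above 0, so AHRR differed from its neighbourhood by 0.0087. PDCD6, a calcium-binding gene whose annotated span shares 49681 bases with that of AHRR on the same strand, had 870 reads in the LKB1 line and 690 in the vector line and a deposited log2 fold of 0.28 (adjusted p = 0.506). Reads of these overlapping genes may not be separable. Some other pairs that overlap on the same strand have nearly equal totals, such as IL4I1 (1796 reads in the LKB1 line, 2016 in the vector line) and NUP62 (1786 in the LKB1 line, 2011 in the vector line). On the other side of AHRR, EXOC3 had a log2 fold of 0.35 (adjusted p = 0.393).

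AHR and CYP1B1 stood further from the median of their neighbours. The genes around AHR had a median log2 fold of 0.15, 0.45 below AHR, but they were uneven, and 5 of 24 were called. On one side AGR2 was at -4.11 (8 reads in the LKB1 line, 137 in the vector line). On the other side SNX13, a sorting nexin, was at 0.65 (adjusted p = 0.0109) and HDAC9, the next gene, at 0.52 (adjusted p = 0.0221). Further out RAPGEF5 was at -2.24 (adjusted p = 1.28e-05) and FAM126A at 0.56 (adjusted p = 0.01). SNX13, HDAC9 and FAM126A thus had folds close to that of AHR. HDAC9, RAPGEF5 and FAM126A were named after their values were seen. Around CYP1B1 the median was 0.10, 0.76 below CYP1B1, and 2 of 24 were called, of which MORN2 at 1.07 (114 reads in the LKB1 line, 52 in the vector line, adjusted p = 0.0134), named after its values were seen, had a higher fold than CYP1B1. Its nearest neighbours were FAM82A1 at -0.86 (37 reads in the LKB1 line, 65 in the vector line, adjusted p = 0.375) and ATL2 at 0.28 (adjusted p = 0.576). The medians were -0.16 around ARNT, -0.20 around CYP1A1 and -0.14 around TIPARP, whose nearest genes CTSS, SETDB1, EDC3, CSK, SSR3 and CCNL1 had log2 folds of -0.28 to 0.05 and were not called. Around TIPARP 5 of 24 neighbours were called, all lower, with MME, also named after its values were seen, the lowest at -3.66. Antisense genes overlapping AHR (AC003075.4) and TIPARP (TIPARP-AS1) had at most 16 reads in a line.

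**Figure D3:**
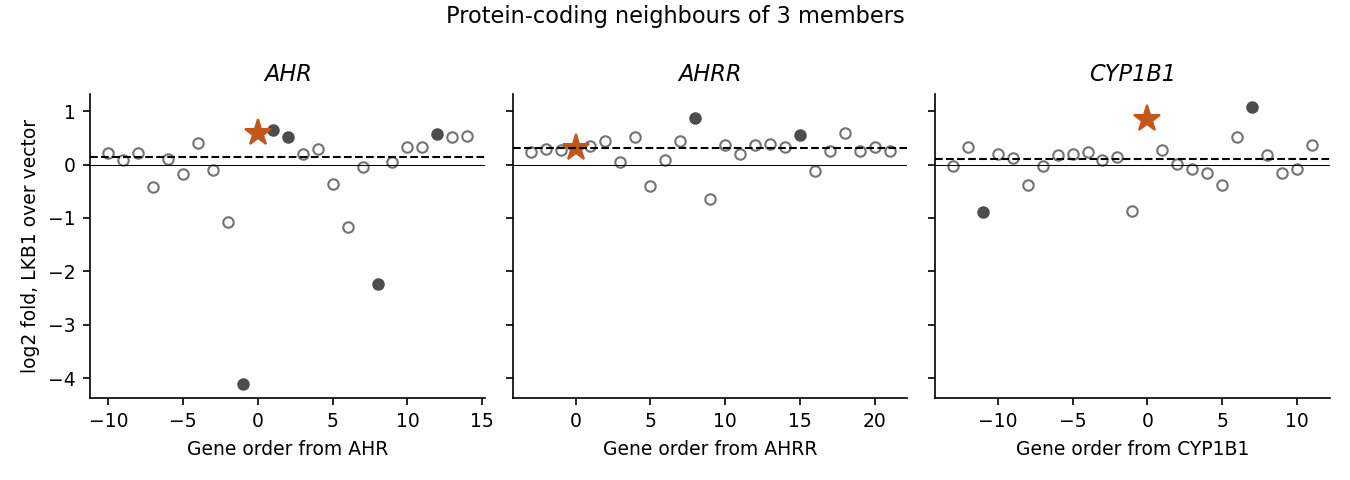
Deposited log2 folds (y axis, LKB1 over vector) of the 24 nearest protein-coding genes in gene order (x axis) around AHR, AHRR and CYP1B1; stars are the members, dark circles genes with an adjusted p under 0.05, and dashed lines the medians of 0.15, 0.30 and 0.10. AHRR lies on its dashed line, while AHR and CYP1B1 lie above theirs, and SNX13 next to AHR and MORN2 near CYP1B1 lie higher still.

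The other genes of the pathway were taken from lists that were drawn up with earlier results of these data known. In the receptor complex, AHR was the 1 gene of 9 that passed and none fell, against 5.9% higher and 7.3% lower over the protein-coding genes of that depth. The chaperones HSP90AA1 and HSP90AB1 had log2 folds of 0.02 and -0.09, and DDB1, an adaptor of the ubiquitin ligase that contains the receptor, one of 0.01. Among bHLH-PAS factors 3 of 19 rose and none fell, at a median of 0.23. Besides AHR, which is counted again here, these were ARNT2, a paralogue of ARNT, and NCOA1, a coactivator. ARNT2 rose by a log2 fold of 0.49 (2095 reads in the LKB1 line, 1437 in the vector line, adjusted p = 0.023) and NCOA1 by 0.77 (706 reads in the LKB1 line, 397 in the vector line, adjusted p = 0.00047). None of these 3 calls held at an assumed variation of 0.2. The hypoxia factors HIF1A and EPAS1, which also pair with ARNT, were at 0.32 (adjusted p = 0.265) and -0.16 (adjusted p = 1), and NPAS2, a circadian factor, at -0.17. HIF1A overlaps RP11-618G20.1 on the same strand, at a log2 fold of 0.34.

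Of the broader target battery 18 of 27 measured genes had at least 40 reads, at a median of -0.10. Of these CYP1B1, a member chosen with these values known, rose and EGR1 fell. Over the protein-coding genes of that depth 5.9% were higher and 7.3% lower. EGR1, an early response factor with many other inputs, had 105 reads in the LKB1 line and 438 in the vector line (log2 -2.11, adjusted p = 1.25e-19 in the authors' deposited table). NQO1, a quinone reductase driven by both AHR and NFE2L2 and named here after its values were seen, had 765 reads in the LKB1 line and 632 in the vector line (log2 0.22, adjusted p = 0.879). NFE2L2 was at 0.30 (adjusted p = 0.379), MYC at -0.28 (adjusted p = 0.46) and the amino acid transporter gene SLC7A5 at 0.13 (adjusted p = 1). Below 40 reads, ALDH3A1 had 8 reads in the LKB1 line and 4 in the vector line, UGT1A6 had 4 in the LKB1 line and 1 in the vector line, and SERPINB2, the 1 called gene there, had 0 in the LKB1 line and 11 in the vector line. 

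Genes of tryptophan breakdown, which make or clear receptor ligands, fell in 2 of 6 members with at least 40 reads and rose in none, at a median log2 fold of -0.31. Over the protein-coding genes of that depth 7.3% were lower and 5.9% higher. Of the 2 calls KYNU held and AADAT was lost at an assumed variation of 0.2. KYNU, kynureninase, which consumes kynurenine, had 96 reads in the LKB1 line and 571 in the vector line, 6.17-fold lower (log2 -2.63, adjusted p = 3.56e-25 in the authors' deposited table). AADAT, an aminotransferase that turns kynurenine into kynurenic acid, had 48 and 99 reads in the LKB1 and vector lines (log2 -1.10, adjusted p = 0.0135). The aminotransferase gene CCBL1 was at 0.11 (adjusted p = 1). The total of IL4I1, an amino acid oxidase, cannot be separated from that of NUP62. IDO1 and TDO2, the enzymes that open the pathway, had 10 and 4 reads in the LKB1 line and 13 and 5 in the vector line, too few for a comparison. The endothelial markers, and some fibroblast and leukocyte markers, fell in the same direction as KYNU and AADAT. Their part in these values was not tested.

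**Figure D4:**
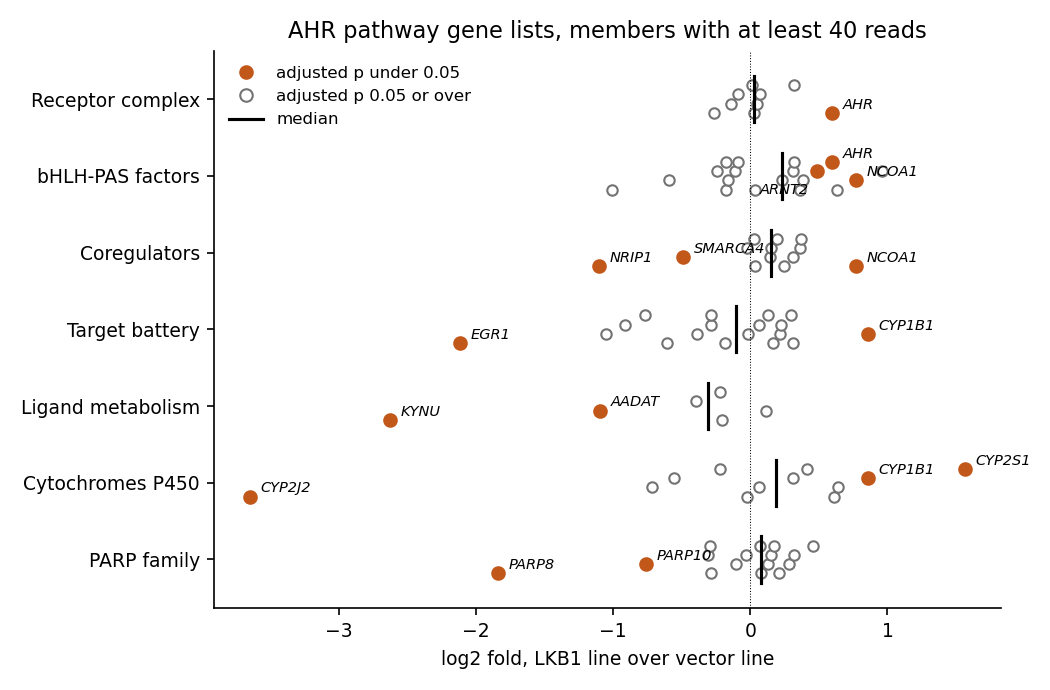
Deposited log2 folds (x axis, LKB1 line over vector line) of list members with at least 40 reads, by role (y axis); filled circles have an adjusted p under 0.05 and black bars are medians. CYP2J2 at -3.65 lies furthest left and CYP2S1 at 1.57 furthest right. KYNU at -2.63, EGR1 at -2.11, PARP8 at -1.84, and NRIP1 and AADAT at -1.10 also lie far left. PARP10 is at -0.76 and SMARCA4 at -0.49, and AHR, ARNT2, NCOA1 and CYP1B1 lie between 0.49 and 0.86 on the right.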

How the data were processed

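RNA of 2 LKB1 and 2 vector libraries was compared. The submitters' processing notes list CASAVA 1.8.2, TopHat2 2.0.6, edgeR 2.6.0 and hg19 without their roles. For counting, strand and filters no setting is given in the sources used here. The authors deposited for each gene, per the file headers, a linear fold (ratio), the log2 of it, and a p-value both raw and adjusted. The adjusted values equal a Benjamini-Hochberg adjustment over all 34675 rows to within 1.89e-06.

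Read totals per line (a count summed over 2 libraries) were solved from the deposited log2 folds, given to 9 decimals. Prior counts of 0.255 (LKB1) and 0.245 (vector), which sum to 0.5, gave whole totals of up to 3000 reads for 27299 of 28242 rows with reads (96.7%). More than 1 pair of totals matched in 32 rows. With priors shifted slightly, 8 to 26 of 2825 rows tried had a match. Genes were called at an adjusted p under 0.05. Alternatives were a two-sided exact negative binomial test on the totals with an assumed variation of 0.1, 0.2 or 0.4 between libraries, other scalings and priors. Recovery and test were tested on simulated data. Lengths came from GENCODE 29, promoters from RefSeq. Python 3.11.15, pandas 2.3.3 and scipy 1.17.1 were used. The members and lists were chosen with earlier results of these data known. Named are the 6 members, STK11, called list genes with at least 40 reads, up to 3 abundant uncalled ones per list, and nearest or overlapping genes. Genes outside this rule are said to be so, or are given as having too few reads. A gene that the rule names is not reported here.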

Additional observations from a re-analysis of the deposited data

How the results depend on the processing

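The calls of AHR and CYP1B1 depend on how much the libraries of a line are taken to vary. The settings were assumed and not estimated. At 0.1 both kept their call, with an adjusted p of 0.0019 for AHR and 2.0e-06 for CYP1B1 (exact negative binomial test, Benjamini-Hochberg over 27299 genes). The deposited adjusted p-values were 0.0018 and 1.32e-06, so the 0.1 setting came close to the authors' test. At 0.2 the exact test gave an adjusted p of 0.495 for AHR and 0.096 for CYP1B1. There 0 of the 6 members passed, with 2 at an unadjusted p under 0.05. At 0.4 both had an adjusted p of 1 and 0 members passed, adjusted or not. At a fold of at least 2 also 0 members passed, and at an adjusted p under 0.01 the 2 did. Among 90 list genes at 40 reads or more, 5 rose and 8 fell, against 5.9% higher and 7.3% lower over all protein-coding genes of that depth. The 5 that rose include AHR and CYP1B1, members chosen with these values known, beside ARNT2, NCOA1 and CYP2S1. Nothing is read from these shares. The exact test covers the 84 list genes with recovered totals, and not SMARCA4, which is among the 8 that fell. At 0.2 CYP2S1 was the 1 higher gene and 5 were lower (KYNU, EGR1, PARP8, NRIP1 and CYP2J2). At 0.4 there were 0 higher and 2 lower (KYNU and CYP2J2). Less the median of its neighbours, the log2 fold was 0.45 for AHR, 0.0087 for AHRR and 0.048 for ARNT, which is -0.11 otherwise. By longest transcript, reads per kilobase in the LKB1 line were 353 for AHR, 128 for AHRR and 102 for TIPARP. Recentring, TMM scaling and other prior counts kept the direction of all 6 log2 folds, though a prior of 5 reads moved that of CYP1A1 to -1.03, against -2.09 as deposited. Leaving out a library was not possible without values per library. No paired analysis was possible because the table holds 1 value per gene over all libraries. Depth limits CYP1A1, with 11 reads in all.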

Other observations

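TIPARP belongs to the PARP family of ADP-ribosyltransferases, and 2 other members fell in the LKB1 line while none rose, of 16 with at least 40 reads (median log2 fold 0.08; 7.3% of protein-coding genes of that depth were lower). PARP8 had 152 reads in the LKB1 line and 523 in the vector line (log2 -1.84, adjusted p = 9.5e-15 in the authors' deposited table), and PARP10 had 291 in the LKB1 line and 474 in the vector line (log2 -0.76, adjusted p = 0.00121). PARP15, with 5 reads in the LKB1 line and 29 in the vector line, was called below the minimum of 40. PARP1, the DNA damage sensor, was at -0.30 (adjusted p = 0.411), PARP4 at 0.08 and TNKS2, a tankyrase, at 0.17. The endothelial markers, and some fibroblast and leukocyte markers, were also lower in the LKB1 line. Their part in these values was not tested.

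The table holds 48 cytochrome P450 genes, and 12 had at least 40 reads. Of these CYP1B1, a member chosen with these values known, and CYP2S1 rose, and CYP2J2 fell. Over the protein-coding genes of that depth 5.9% were higher and 7.3% lower. CYP2S1, which AHR is also known to induce, had 99 reads in the LKB1 line and 32 in the vector line (log2 1.57, adjusted p = 0.00111). CYP2J2, an arachidonic acid epoxygenase that endothelial cells also express, had 4 reads in the LKB1 line and 51 in the vector line (log2 -3.65, adjusted p = 1.3e-06). CYP2U1 was at 0.31 (adjusted p = 0.66) and CYP4V2 at -0.22 (adjusted p = 1), and the total of CYP51A1 (1021 reads in the LKB1 line, 941 in the vector line) is nearly that of the overlapping LRRD1 (1024 in the LKB1 line, 941 in the vector line). The electron donors CYB5R3, POR and CYB5B were at 0.02, 0.18 and 0.02, none called.

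Among 13 coregulators with at least 40 reads NCOA1 rose, and NRIP1 and SMARCA4 fell, against 5.9% higher and 7.3% lower over protein-coding genes of that depth. NRIP1, a corepressor of nuclear receptors, had 317 reads in the LKB1 line and 656 in the vector line (log2 -1.10, adjusted p = 2.02e-07 in the authors' deposited table). SMARCA4, a chromatin remodelling ATPase, was at -0.49 (adjusted p = 0.0127), in a neighbourhood on chromosome 19 with a median of -0.27. The acetyltransferases CREBBP and EP300 were at -0.02 and 0.25, and SP1 at 0.20.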
